A study of Mus musculus with 8 samples.

Results

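The expression of 10 genes of mast cell proteases and receptors was compared between the mouse corneal button and the limbal rim. The genes were taken by symbol, with no limit on their values. They were the granule proteases Cpa3, Mcpt4, Cma1, Tpsb2 and Tpsab1, the histamine-forming enzyme Hdc, the IgE receptor chains Fcer1a and Ms4a2, the growth factor receptor Kit and its ligand Kitl. All 10 were among the 23420 genes that the table names, and all 10 had at least 1 read. The limbal rim is the ring where the clear cornea meets the sclera and conjunctiva, and the button is the clear tissue it encloses. Both tissues came from 8-week-old C57BL/6J mice of wild type genotype, and tissue from several eyes was pooled before RNA extraction. No treatment is named. The labels list 4 samples per tissue, but the values are those of 1 library per tissue, 26104317 reads on named genes for the cornea and 21182025 for the limbus. There were therefore no replicates, no test was possible, and every interval given here covers counting error only. Where a pair of reads is given, the cornea comes first.

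Mast cells are resident immune cells that lie along vessels and nerves in connective tissue. In the eye they are known from the conjunctiva and the limbus, among other sites. Their granules hold histamine, made from histidine by the enzyme Hdc, together with proteases bound to heparin. Connective tissue mast cells of the mouse store the carboxypeptidase Cpa3, the chymases Mcpt4 and Cma1 and the tryptase Tpsb2, while mucosal mast cells store the chymases Mcpt1 and Mcpt2. Antigen that crosslinks IgE on the high-affinity receptor, built from Fcer1a, Ms4a2 and Fcer1g, releases the granules. Kit is the receptor tyrosine kinase that mast cells need to develop and survive, and Kitl, also called stem cell factor, is its ligand.

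The mast cell genes differed in opposite ways. The proteases and Hdc had at most 3 reads each in the corneal library and had up to 139 reads in the limbal library. Kit, in contrast, was abundant in both tissues, 1.94-fold more in the cornea after scaling, and Kitl was at about the same level in both. Of the 10 genes, 8 had more than 3 reads in a library, and 5 of them (Cpa3, Mcpt4, Cma1, Tpsb2 and Hdc) were at least 2-fold higher in the limbus with an interval that left out equal expression. None passed the same limits in the cornea. Over all 15571 genes with more than 3 reads in a library, 17.6% were higher in the limbus by these limits and 8.06% were higher in the cornea. The median log2 ratio of limbus over cornea was 2.07 for the 10 genes, with reads of 3 or fewer set at 3 and Fcer1a and Ms4a2 therefore at 0. It was 3.70 for the 8 above 3 reads in a library, and 0.01 for all genes above that floor. In bulk tissue, fewer mast cells and less RNA per mast cell cannot be told apart.

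The promoters of 4 of the genes that were higher in the limbus are shown, each as the 120 bases just before the transcription start in RefSeq (GRCm38.p6). Capitals mark the motifs that were searched on both strands, AGATAA and TGATAA, which are bound by GATA factors such as Gata2 of mast cells, and the TATA box TATAAA. All 4 genes lie on the minus strand and are written 5′ to 3′ in the direction of transcription, Cpa3 at chr3:20242182-20242301, Mcpt4 at chr14:56062311-56062430, Cma1 at chr14:55944676-55944795 and Hdc at chr2:126618679-126618798. In the GENCODE annotation the Hdc window lies in the first intron of a longer transcript, and the last 3 bases of the Mcpt4 window lie in its first exon.
Cpa3: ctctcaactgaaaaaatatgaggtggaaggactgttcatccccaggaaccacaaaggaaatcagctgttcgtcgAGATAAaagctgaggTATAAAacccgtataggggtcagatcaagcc
Mcpt4: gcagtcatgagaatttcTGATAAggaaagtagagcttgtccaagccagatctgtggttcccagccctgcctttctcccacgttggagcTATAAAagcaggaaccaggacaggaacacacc
Cma1: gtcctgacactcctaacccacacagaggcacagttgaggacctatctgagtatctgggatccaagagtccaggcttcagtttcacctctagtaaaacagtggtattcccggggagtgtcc
Hdc: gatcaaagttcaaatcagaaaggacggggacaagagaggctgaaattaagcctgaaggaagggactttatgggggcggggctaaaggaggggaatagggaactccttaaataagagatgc

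Cpa3 had AGATAA at -46 to -41 and TATAAA at -31 to -26, counted from the transcription start. Mcpt4 had TGATAA farther away, at -103 to -98, and TATAAA at -32 to -27. Cma1 and Hdc had none of the motifs searched in this window, and other forms of the GATA site were not searched. RefSeq promoters were at hand for 8 of the 10 genes, all but Tpsb2 and Tpsab1, and 4 of the 8 held AGATAA or TGATAA, namely Cpa3, Mcpt4, Fcer1a and Ms4a2. TATAAA was in 3 of the 8, namely Cpa3, Mcpt4 and Kitl. Of all 32851 promoter windows of the same length, 7.63% held AGATAA or TGATAA and 6.34% held TATAAA. The matches describe letters only, and binding was not measured.

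Cpa3 encodes carboxypeptidase A3, which trims the C-terminal residues of peptides in the granule. It lies at chr3:20215620-20242181 on the minus strand and overlaps the microRNA gene Mir7007 on the same strand. It had 2 corneal and 58 limbal reads, or 0.0766 reads per 1000000 reads on named genes (RPM, 95% interval 0.00928 to 0.277) and 2.74 (2.08 to 3.54). The intervals of the libraries did not overlap. The ratio of normalized reads was 31.0-fold (8.20 to 262) in favour of the limbus. With the cornea set at 3 reads its log2 ratio was 4.37, and on that scale 1.66% of all genes above 3 reads had a ratio as high.

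Mcpt4, a chymase that cuts after aromatic residues and is stored by connective tissue mast cells, had the most reads of the proteases. It lies at chr14:56059629-56062313 on the minus strand. It had 0 corneal reads, with an upper 95% limit of 0.141 RPM, and 139 limbal reads, 6.56 RPM (5.52 to 7.75). With the cornea set at 3 reads, the limbus was 49.5-fold higher with a lower 95% limit of 16.6-fold, and 0.591% of the genes had a ratio as high. The deposited mean of Mcpt4 would also fit 109 corneal and 37 limbal reads, a pair that goes against the direction deposited for the gene.

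Cma1, the other chymase, lies at chr14:55941451-55944675 on the minus strand. It had 1 corneal and 76 limbal reads, 0.0383 (0.00097 to 0.213) and 3.59 (2.83 to 4.49) RPM. The limbus was 81.2-fold higher (14.1 to 3250), an interval whose width comes from the single corneal read. With the cornea set at 3 reads its log2 ratio was 4.76, below 5.63 for Mcpt4 and 5.17 for Tpsb2 on the same scale.

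The tryptases Tpsb2 and Tpsab1 are neighbours on chromosome 17. Tryptases act as tetramers held together by heparin. Tpsb2, at chr17:25366305-25369098 on the plus strand, had 0 corneal and 101 limbal reads, 4.77 RPM (3.88 to 5.79), and was 36.0-fold higher in the limbus with the cornea set at 3 reads (lower 95% limit 11.96). Tpsab1, at chr17:25343245-25345562 on the minus strand, had 0 corneal and 6 limbal reads, 0.283 RPM (0.104 to 0.617). The ratio of Tpsab1 with the cornea set at 3 reads was 2.14-fold with a lower 95% limit of 0.456, which includes equal expression, so at this depth the tissues could not be told apart for this gene. GENCODE lists Tpsab1 as protein coding, whereas RefSeq lists it as a transcribed pseudogene in C57BL/6J. The tryptases shared no stretch of 75 bases between their transcripts, the length set here to ask whether reads could be confused. Of the other proteases, 2.51% of the 75-base stretches of Mcpt4 also occurred in Cma2 and 1.67% of those of Cma1 in Gm48934, and Cpa3 shared none.

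Together the 5 proteases had 3 corneal and 380 limbal reads, 0.115 and 17.9 RPM. The summed level was 135-fold higher in the limbus (46.0 to 659). Per length of exon, the limbal levels were 5.92 RPKM, that is RPM per kilobase, for Mcpt4 (4.98 to 6.99), 3.29 for Cma1 (2.59 to 4.12), 2.99 for Tpsb2 (2.44 to 3.63), 1.80 for Cpa3 (1.37 to 2.33) and 0.135 for Tpsab1 (0.0496 to 0.294). Cma1 and Tpsb2 could not be ordered within counting error, while the other neighbours in this order did not overlap.

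**Figure D1:**
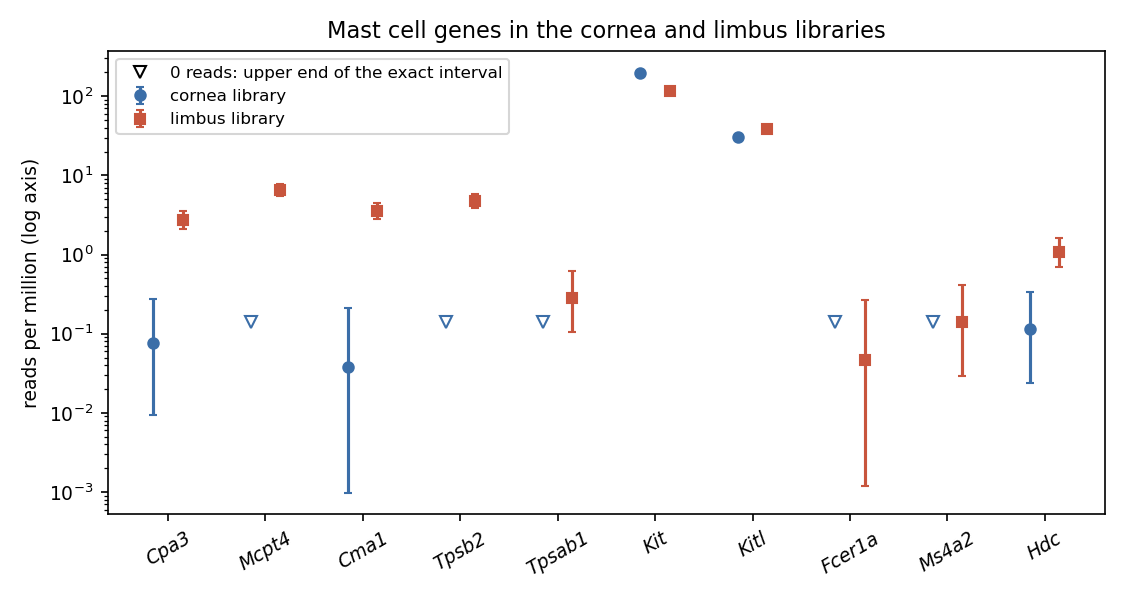
RPM of each mast cell gene in the corneal and the limbal library, on a log axis, with exact 95% Poisson intervals that cover counting error only and 0 reads drawn as an upper limit. In the cornea, Cpa3 lies at 0.0766 and Cma1 at 0.0383, and Mcpt4, Tpsb2 and Tpsab1, with 0 reads, are drawn at the upper limit of 0.141. The proteases lie between 0.283 and 6.56 in the limbus, while Kit lies at 198 in the cornea and 118 in the limbus.

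The chymase genes stand in a cluster of granule serine proteases on chromosome 14, from 55941451 to 56262260, of which 15 genes were in the table. Only Cma1 and Mcpt4 of these 15 had more than 10 reads in a library. The other 13 genes had 18 corneal and 10 limbal reads in all, and 9 of them had none in either. Mcpt1 and Mcpt2, the chymases of mucosal mast cells, had 1 and 7 reads in the cornea and 0 and 5 in the limbus. Mcpt8, stored by basophils, the neutrophil protease Ctsg and Gzmb of killer cells were at 0 in both libraries. Next to the tryptases, Tpsg1, the membrane-anchored tryptase, had 0 corneal and 2 limbal reads. At this depth, the connective tissue chymases were thus detected in the limbus beside mucosal chymases that had no more than 5 reads there.

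**Figure D2:**
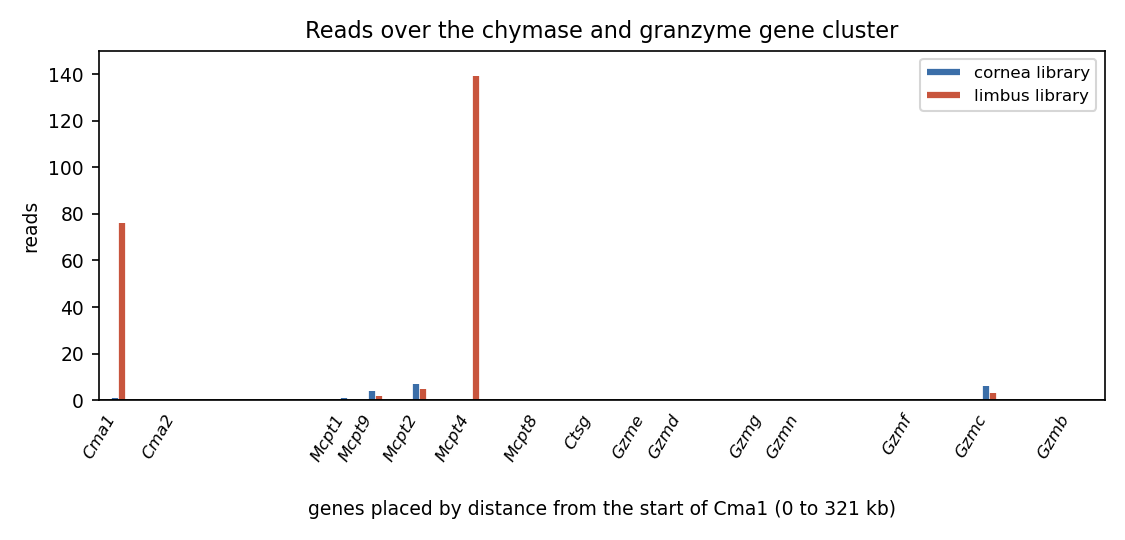
Reads of the 15 genes of the granule protease cluster of chromosome 14 in the corneal and the limbal library, by distance in kilobases from the start of the cluster. Cma1 and Mcpt4 stand out at 76 and 139 limbal reads, and no other gene exceeds 7 reads.

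Hdc, the enzyme that forms histamine, lies at chr2:126593667-126619299 on the minus strand. It had 3 corneal and 23 limbal reads, 0.115 (0.0237 to 0.336) and 1.09 (0.688 to 1.63) RPM. The limbus was 8.19-fold higher (2.48 to 42.6), and 5.41% of the genes had a ratio as high. Of the genes for histamine breakdown and the histamine receptors, 5 were in the table, and none of the 4 with more than 3 reads passed the limits in either direction. Over all genes, 17.6% passed them in the limbus and 8.06% in the cornea. Hnmt, which methylates and inactivates histamine, had 133 corneal and 84 limbal reads. The receptors were near the floor, Hrh1 with 5 and 8 reads, Hrh2 with 1 and 5, Hrh3 with 1 and 4 and Hrh4 with 0 in both.

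**Figure D3:**
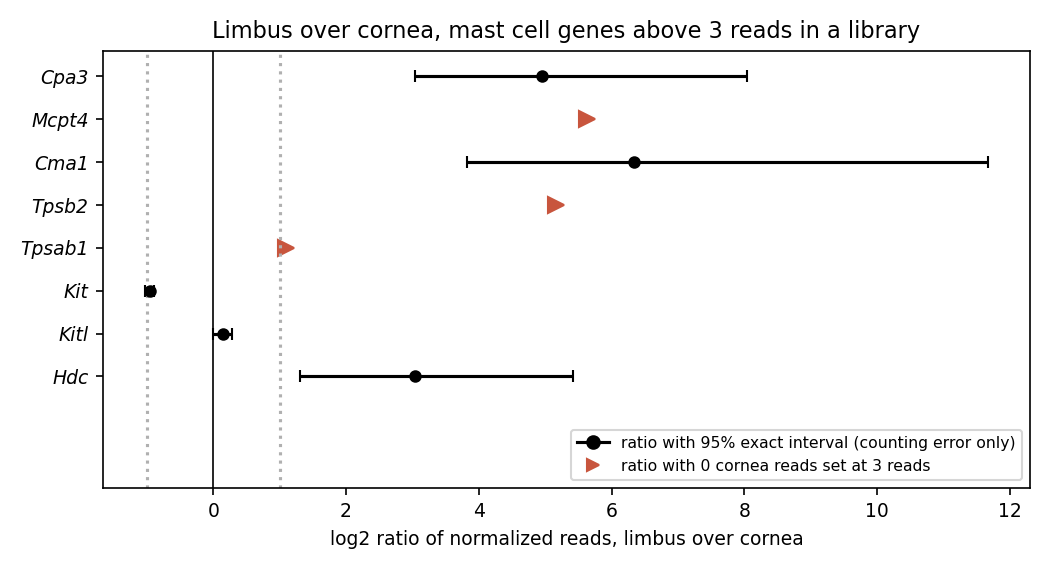
Log2 ratio of normalized reads, limbus over cornea, for the 8 mast cell genes with more than 3 reads in a library, with exact 95% intervals that cover counting error only and triangles for the ratio with the cornea set at 3 reads where it had 0. Dotted lines mark 2-fold. Cpa3, Mcpt4, Cma1, Tpsb2 and Hdc lie beyond 2-fold, Kitl lies at 0.14 and Kit at -0.96. Tpsab1 lies at 1.10, just past the line, but its interval, which is not drawn, includes equal expression.

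The receptor chains that define the IgE receptor were too rare for a ratio. Fcer1a, the chain that binds IgE (chr1:173221284-173227214, minus strand), had 0 corneal and 1 limbal reads. Ms4a2, the beta chain that amplifies its signal (chr19:11615523-11623719, minus strand), had 0 and 3 reads. The third chain, Fcer1g, which mast cells share with macrophages and other leukocytes, had 21 corneal and 182 limbal reads, 9.26-fold more (5.88 to 15.3). Of the 13 genes of signalling below this receptor, Fcer1g included, 9 were higher in the limbus by the limits above and none was higher in the cornea. The shares of all genes were 17.6% and 8.06%. The median log2 ratio of the 13 was 2.56. Fyn, a kinase that starts one branch of the signal, had 13 and 214 reads and was 17.6-fold higher in the limbus (10.1 to 33.6). Lat and Btk had 4 and 22 reads each, and the adaptor Lcp2 had 3 and 31. The kinases Lyn, with 1038 and 1127 reads, and Syk, with 1477 and 1149, differed by less than 2-fold. Most of these genes are used by other leukocytes too. The leukocyte gene Ptprc had 30 and 72 reads, and 4 of 5 macrophage and leukocyte markers were higher in the limbus, with summed levels of 30.1 and 112 RPM. Their part in these differences was not tested.

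Kit lies at chr5:75574916-75656722 on the plus strand. It had 5165 corneal and 2491 limbal reads, 198 (193 to 203) and 118 (113 to 122) RPM. The cornea was 1.94-fold higher (1.85 to 2.04), short of the 2-fold limit, and without a minimum fold 36.5% of all genes were higher in the cornea. By its number of reads Kit ranked 743rd in the cornea and 1496th in the limbus. Per length, Kit was at 22.2 RPKM in the cornea, where Cpa3 was at 0.0505 and Cma1 at 0.0351, and at 13.2 in the limbus, above the 5.92 of Mcpt4. The corneal library thus held Kit RNA with almost no RNA of the mast cell proteases. The deposited mean of Kit allowed 72 pairs of reads, and the next best of them, with 7781 and 43 reads, would move the value further towards the cornea.

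Kit is also carried by melanocytes, whose markers went the other way. All 7 melanocyte markers were higher in the limbus, where 17.6% of all genes were, with summed levels of 12.2 RPM in the cornea and 81.2 in the limbus. Among them Dct had 183 and 710 reads, Tyrp1 35 and 266 and Sox10 2 and 115. Krt12, the keratin of corneal epithelium, had 1137735 and 233324 reads and was 4.56-fold higher in the cornea (4.54 to 4.58), in the same direction as Kit. Of the 4 corneal epithelium markers, Krt12 included, 2 were higher in the cornea, where 8.06% of all genes were, and 2 were neither. Of 5 keratocyte markers, 2 were higher in the cornea, 1 in the limbus and 2 were neither. Among these, Kera was 7.97-fold higher in the cornea (7.54 to 8.43). Aldh3a1, 2.33-fold higher in the cornea, stood in both lists and was 1 of the 2 genes higher there in each. Which cells the Kit RNA came from was not tested.

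Kitl, at chr10:100015630-100100416 on the plus strand, had 795 corneal and 822 limbal reads, 30.5 and 38.8 RPM. The limbus was 1.10-fold higher (log2 ratio 0.14, interval 0.0015 to 0.29), so the tissues differed by little more than counting error. Without a minimum fold Kitl was the 6th gene with an interval on the limbal side of equality, where 34.0% of all genes lay. Per length, Kitl was at 6.57 RPKM in the limbus (6.12 to 7.03), which overlapped Mcpt4. Its mean allowed 16 pairs of reads, and the next best one, with 1122 and 516 reads, would put it higher in the cornea. Of 11 genes of signalling below Kit, 3 were higher in the limbus, 1 was higher in the cornea and 7 were neither, with a median log2 ratio of 0.41. These counts were near the shares of all genes, 17.6% for the limbus and 8.06% for the cornea. Sh2b2, an adaptor, had 2 and 37 reads and was 19.8-fold higher in the limbus (5.10 to 169), and Pik3cd, the leukocyte form of the kinase subunit, had 48 and 238 and was 5.30-fold higher (3.87 to 7.39). Cbl, which marks Kit for breakdown, had 627 and 288 reads and was 2.04-fold higher in the cornea (1.77 to 2.35).

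**Figure D4:**
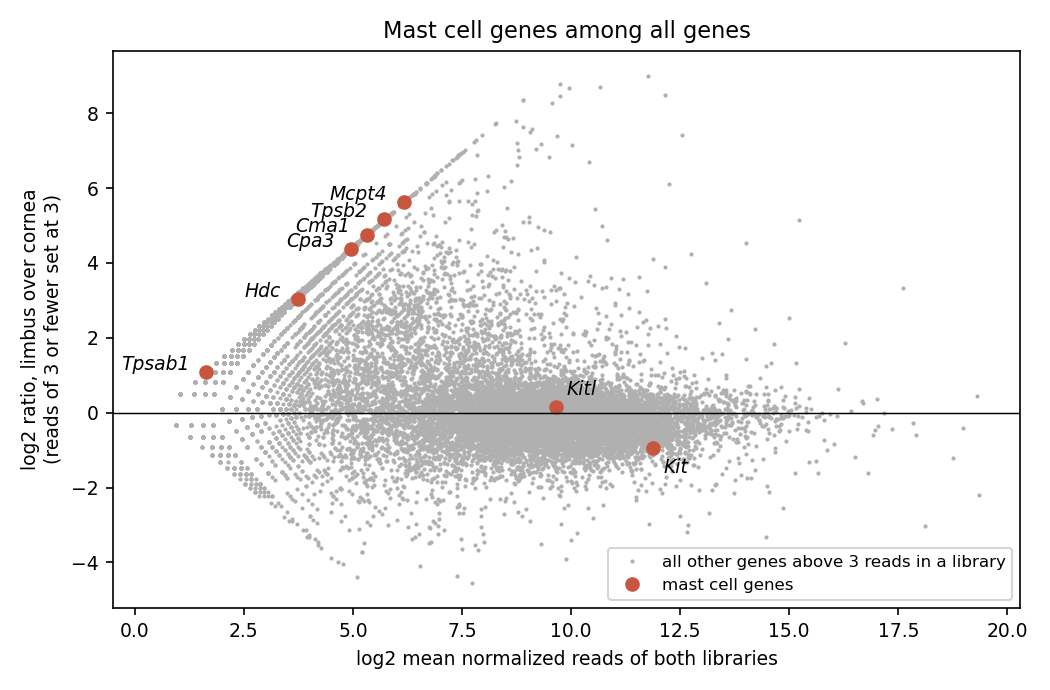
Log2 ratio of limbus over cornea, with reads of 3 or fewer set at 3, against the log2 mean of normalized reads, for all 15571 genes with more than 3 reads in a library, with the mast cell genes in red. Mcpt4, Tpsb2, Cma1, Cpa3 and Hdc lie on the upper edge, where the cornea is at the floor, and Kit and Kitl lie among the genes with many reads.

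Of other surface receptors of mast cells, 10 had more than 3 reads, and 5 of these were higher in the limbus and none in the cornea. The shares of all genes were 17.6% and 8.06%, and the median log2 ratio of the 10 was 1.90. Among the 5 that were neither, Il1rap had 255 and 221 reads and Il3ra had 76 and 110. Csf2rb and Csf2rb2, the beta chains of the receptors for interleukin 3 and related cytokines, had 3 and 109 reads and 3 and 115 reads, 38.8-fold (12.9 to 191) and 41.0-fold (13.7 to 202) higher in the limbus. Il1rl1, the receptor of interleukin 33, had 1 and 25 reads and was 26.7-fold higher as counted (4.37 to 1097). Ptger3, a prostaglandin E receptor, had 0 and 28 reads and was 9.97-fold higher with the cornea set at 3 reads (lower 95% limit 3.08). On that scale the log2 ratio was 3.32 for Ptger3 and 3.15 for Il1rl1. Mrgprb2, the receptor for basic secretagogues of connective tissue mast cells, had 0 and 3 reads. Which cells the RNA of these receptors came from was not tested.

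Genes of the granule and of lipid mediators showed mixed values. Of 10 genes for granule matrix and amine storage, 2 were higher in the limbus, near the share of 17.6% of all genes, and 8 were neither, with a median log2 ratio of 0.47. Srgn, the proteoglycan core that holds the proteases in the granule, had 9 and 84 reads and was 9.97-fold higher in the limbus (5.01 to 22.6). Rab27a, a secretion GTPase that melanocytes use too, had 279 and 1579 reads and was 6.05-fold higher (5.32 to 6.89), while its paralog Rab27b had 4949 and 2784 reads, 1.66-fold more in the cornea (1.59 to 1.74). The vesicle amine transporter Slc18a2 had 2 and 7 reads, and Tph1, which starts serotonin synthesis, had 0 and 7. Of 6 genes of eicosanoid synthesis, 2 were higher in the limbus, Alox5ap with 6 and 82 reads and the leukotriene C4 synthase Ltc4s with 0 and 15, and the median log2 ratio of the 6 was 0.89. Hpgds, the prostaglandin D synthase of mast cells, had 4094 and 2512 reads, 1.53-fold more in the cornea (1.451 to 1.603). The cells that the RNA of these granule and lipid genes came from were not tested.

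Of the transcription factors of mast cells, 5 had more than 3 reads and 2 were higher in the limbus, with a median log2 ratio of 0.99. The share of all genes higher in the limbus was 17.6%. Gata2 had 0 corneal and 56 limbal reads and was 19.9-fold higher there with the cornea set at 3 reads (lower 95% limit 6.48). Tal1 had 0 and 25 reads and was 8.91-fold higher on the same scale (lower 95% limit 2.72). Both are also expressed by vessel endothelium. Mitf, a factor of mast cells and melanocytes, had 29 and 54 reads and was 1.99-fold higher in the limbus (1.24 to 3.24), just short of the limit. Gata1 had 0 and 2 reads.

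Of the cytokines that act on mast cells, 3 of the 4 with more than 3 reads exceeded the limits in the limbus, with a median log2 ratio of 2.05. The share of all genes that did so was 17.6%. Cxcl12 had 11 and 748 reads and was 72.7-fold higher (40.4 to 146). Il33, the ligand of Il1rl1, had 117 and 709 reads and was 6.48-fold higher (5.32 to 7.94). Tslp had 19 and 47 reads. Il3, Il4, Il9 and Il13 were at 0 in both libraries.

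**Figure D5:**
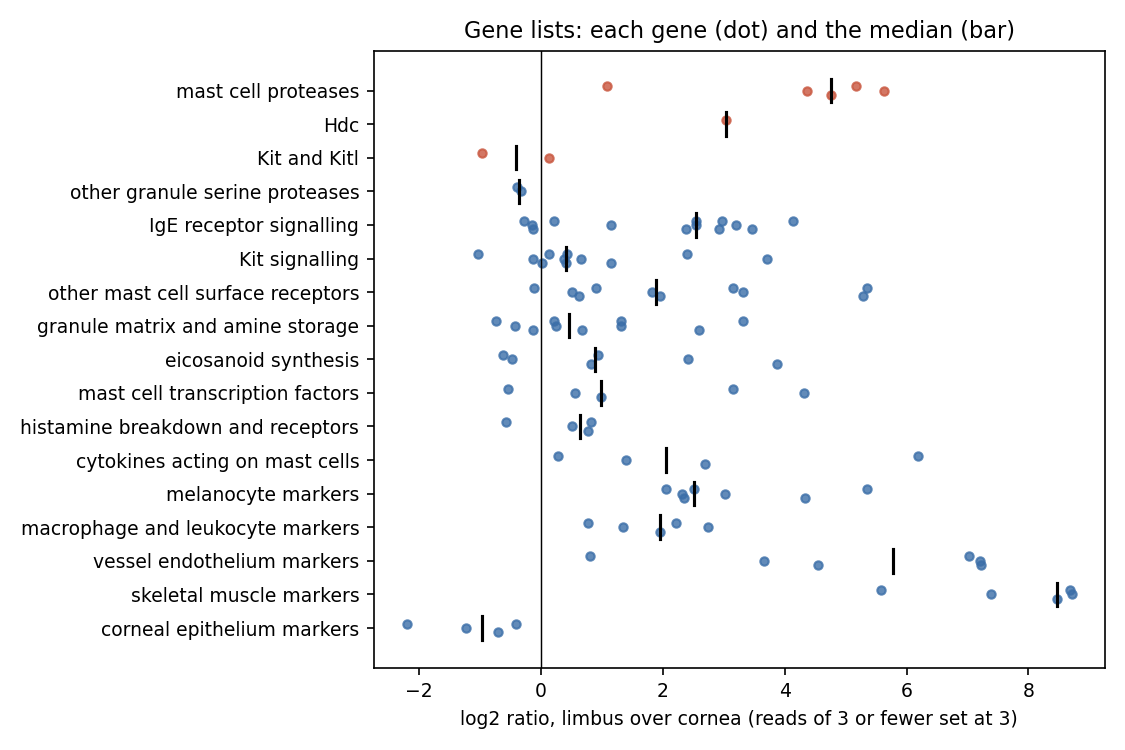
Log2 ratio of limbus over cornea for each gene with more than 3 reads in a library, with reads of 3 or fewer set at 3, by list, with a bar at the median of the list. The mast cell proteases lie from 1.10 to 5.63, skeletal muscle markers from 5.58 to 8.71 and corneal epithelium markers from -2.19 to -0.41.

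Markers of several other tissues moved in the same direction as the mast cell proteases. All 5 skeletal muscle markers were higher in the limbus, from 1.42 to 409 RPM in sum, as were all 5 mural cell markers and 5 of 6 markers of vessel endothelium, the latter from 9.27 to 132. For comparison, 17.6% of all 15571 genes above 3 reads passed the limits towards the limbus and 8.06% towards the cornea. Pecam1, of endothelium, had 6 and 831 reads, and Myh4, of skeletal muscle, 8 and 3126. Conjunctival keratins were also higher, Krt4 with 2138 and 71498 reads, while the mucin gene Muc5ac of the same list had 1 read in each library. The limbal keratin Krt15 had 37738 and 353826 reads and was 10.02-fold higher in the limbus (9.91 to 10.1), and all 3 limbal keratins were higher there. Of 5 keratocyte markers, 2 were higher in the cornea, among them Kera with 12119 and 1423 reads, 1 was higher in the limbus, Ptgds with 186 and 1950, and 2 were neither. Basophil markers had 1 read in each library, with the basophil proteases Mcpt8 and Prss34 at 0. Of the T and B cell markers, 1 of 6 had more than 3 reads, with 1 and 12 reads in sum. The part of the dissection, of vessels and of neighbouring tissue in the levels of the mast cell genes was not tested.

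Of 10944 genes with at least 100 limbal reads, 18 had 0 reads in the cornea, and Mcpt4 and Tpsb2 were among them, a set chosen after its values were seen. No gene with at least 100 corneal reads had 0 in the limbus. The muscle genes Pgam2 and Des, with 340 and 305 limbal reads, led the set, and the endothelial gene Flt1 had 225.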

How the data were processed

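RNA of pooled corneal buttons and limbal rims was made into stranded total RNA libraries and sequenced by the authors, who trimmed adaptors and used CLC Genomics Workbench to map reads to GRCm38 (mm10), with trimmed mean of M-values normalization. Whether counting used strand is not given in the sources used here. The authors deposited 1 table with a mean normalized signal per gene over both tissues. The deposited table also holds the authors' comparison, a log2 fold change, its standard error (treated as a score) and p-values. The p-values were not used, and the fold change and its error served only to choose among pairs of reads and are not printed. Of 40904 rows, 17484 name no gene and were left out.

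Each mean is the average of 2 libraries whose reads were divided by a size factor, so that 109 corneal reads weigh as much as 102 limbal reads. Whole reads were recovered from it. The mean alone fixed 1 pair for 7 of the 10 genes (all but Mcpt4, Kit and Kitl) and for 6143 of 17442 genes. For the rest, the pair that met the deposited fold change and best met its standard error was taken, and 99.8% of genes met the error within 0.001. Pairs against the deposited direction were left out unless the fold change was near 0. Where pairs tied or none met the error, at most 118 genes, the choice used the dispersion (the spread term of the fit) of genes alike in level and ratio. The choice was also run on reads simulated with the same formulas for fold change and standard error, where the reads of all 3923 genes were recovered. That outcome follows largely from the shared formulas, so it cannot show that the deposited values obey them. Normalized reads are reads over the size factors, and RPM (reads per 1000000) uses all reads on named genes. RPKM also divides by the exon length of GENCODE M21 (GRCm38), whose coordinates are given.

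A gene was called higher where the ratio was at least 2-fold and the exact 95% interval (Clopper-Pearson) around the share of limbal reads left out equality, with 3 reads or fewer set at 3. Ratios of genes with 1 to 3 reads are printed as counted. Levels have exact Poisson intervals. Amplified reads carry no molecular identifiers and are not separate molecules, so intervals cover counting error only. The genes named were all 10, and from each other list the genes with the most reads or the largest ratio and defining genes at 0. A few more were added with their values in view. A gene of the cytokine list is not reported here. These genes and lists were chosen with earlier results of these data known. Alternatives changed the scaling, the pseudocount, the filter on low means, the minimum fold and the pair of reads. Python 3.11.15, numpy 2.4.6, scipy 1.17.1 and pandas 2.3.3 were used.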

Additional observations from a re-analysis of the deposited data

How the results depend on the processing

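No paired analysis was possible because numbered samples have no columns of their own, and no replicate could be left out because each tissue is 1 library. The number of mast cell genes higher in the limbus was 5 under both other scalings, a pseudocount of 1, a mean of at least 10 and limits of 1.5-fold and 4-fold, and 6 with no minimum fold, where Kitl joined. With a mean of at least 50 normalized reads it was 2 of the 4 genes left, since that filter drops Cpa3, Cma1 and Hdc. The median log2 ratio ranged from 2.07 to 4.37 and that of the summed proteases from 6.42, without Mcpt4, to 7.29. Scaling by total reads shifted every log2 ratio by 0.21 towards the limbus, which put Kit at -0.75 and Kitl at 0.35. With the next best pair of reads, the log2 ratio turned to -1.46 for Mcpt4 and to -1.02 for Kitl, and Kit moved to -7.40. Those pairs missed the deposited standard error by 0.131, 0.00691 and 0.00175, while the pairs used missed it by no more than 1.52e-05. The other 22 alternatives for single genes kept their direction. A further 5, which took reads from the mean alone, equal the values given by construction, since those means allow 1 pair. Depth limits Fcer1a, Ms4a2 and Tpsab1, which had 1, 3 and 6 limbal reads.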
